A study of Mus musculus with 10 samples.

Results

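In 4 ATAC-seq libraries of mouse bone marrow-derived dendritic cells, 291 stretches of chromatin at least 1500 bp wide carried a peak in every library. They were found by joining peak intervals that overlapped by at least 1 bp into 24542 merged regions, of which 12033 held a peak from all 4 libraries. The 291 regions made up 2.42% of those 12033 and 1.19% of all merged regions, and they were chosen by their width and by their presence in the 4 libraries, so both properties are description and were not tested. The other 11742 regions open in all 4 libraries were narrower than 1500 bp and are called narrow regions below, while 12509 regions lacked a peak in at least 1 library. The cells were grown for 7 days from the marrow of wild-type female C57BL/6 mice aged 8 to 10 weeks, in medium with 20 ng/mL of the growth factor GM-CSF. On day 6 the non-adherent cells, which the labels call immature, received either AMLE (apple mango leaf extract) at 400 µg/mL or its vehicle, 0.04% DMSO, for 24 h. Open chromatin was mapped in 2 DMSO and 2 AMLE libraries, each from 100000 cells exposed to transposase for 30 min at 37 °C, and RNA was sequenced in 3 DMSO and 3 AMLE libraries. Such cultures are mixtures of dendritic cells, macrophages and their precursors, and bulk libraries cannot tell fewer cells of a type apart from less RNA or less open chromatin per cell. Nothing in the labels ties the replicates to different animals or cultures; p-values therefore reflect only how far these libraries differ from one another.

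ATAC-seq uses a transposase that inserts sequencing adapters where DNA is not wrapped on nucleosomes, so a peak marks a stretch that transcription factors and the transcription machinery can reach. Most open sites are short gaps at a promoter or an enhancer, and a wide one holds several such gaps side by side or a promoter whose flanks are also free of nucleosomes. In dendritic cells, sentinels that carry antigen to T cells, the genes of activation are switched by NF-kB, AP-1 and interferon regulatory factors, and many early response genes keep their promoters open before a stimulus arrives.

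Promoters of the genes with a start in a wide region are shown for Fscn1, Dusp1, Rel and Cytip. These had the 4 largest rises in RNA among such genes with an adjusted p below 0.05 in edgeR. Also shown is Nfkb2, which like Rel encodes an NF-kB subunit. Each of these promoters lay wholly inside its region. The sequences are those of RefSeq on build GRCm38.p6, which is mm10, from 250 bases before to 50 bases after the gene start, read along the gene's own strand. The Fscn1 promoter lies at chr5:142960105-142960404 on the plus strand, in the wide region chr5:142959135-142960963. Dusp1 lies at chr17:26508423-26508722 on the minus strand, in the wide region chr17:26507543-26509448. Rel lies at chr11:23770920-23771219 on the minus strand, in the wide region chr11:23769947-23771668. Cytip lies at chr2:58160073-58160372 on the minus strand, in the wide region chr2:58159680-58161312. The Nfkb2 starts, named a and b here, lie at chr19:46304487-46304786 and chr19:46305445-46305744 on the plus strand, both in the wide region chr19:46304215-46305770. Capitals mark matches, on either strand, to a cyclic AMP response element (CRE, TGACGTCA), an E-box (CACGTG) and an AP-1-type site (TGANTCA). They also mark a kappaB-type site (3 G, any 2 bases, 3 T and 2 C), a TATA box (TATAAA) and a CCAAT box (CCAAT). The AP-1-type pattern allows any base at N, and its match in Nfkb2 b is TGAATCA.
Fscn1: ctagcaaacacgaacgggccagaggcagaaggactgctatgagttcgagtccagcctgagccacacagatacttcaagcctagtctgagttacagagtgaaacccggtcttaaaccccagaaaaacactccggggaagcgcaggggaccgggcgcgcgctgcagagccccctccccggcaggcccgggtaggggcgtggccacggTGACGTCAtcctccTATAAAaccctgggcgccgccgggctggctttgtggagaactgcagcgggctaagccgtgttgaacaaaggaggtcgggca
Dusp1: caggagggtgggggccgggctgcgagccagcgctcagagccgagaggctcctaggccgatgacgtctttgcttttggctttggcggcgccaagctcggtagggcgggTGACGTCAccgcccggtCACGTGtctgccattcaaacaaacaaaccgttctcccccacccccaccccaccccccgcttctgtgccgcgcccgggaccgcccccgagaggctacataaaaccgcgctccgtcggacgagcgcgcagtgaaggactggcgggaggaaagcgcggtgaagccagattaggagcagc
Rel: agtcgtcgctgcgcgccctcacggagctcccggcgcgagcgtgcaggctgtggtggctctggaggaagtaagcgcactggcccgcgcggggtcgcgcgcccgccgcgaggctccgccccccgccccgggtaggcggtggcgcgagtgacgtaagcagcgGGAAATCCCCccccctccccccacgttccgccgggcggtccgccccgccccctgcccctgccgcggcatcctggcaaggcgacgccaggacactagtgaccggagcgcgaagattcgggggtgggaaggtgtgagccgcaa
Cytip: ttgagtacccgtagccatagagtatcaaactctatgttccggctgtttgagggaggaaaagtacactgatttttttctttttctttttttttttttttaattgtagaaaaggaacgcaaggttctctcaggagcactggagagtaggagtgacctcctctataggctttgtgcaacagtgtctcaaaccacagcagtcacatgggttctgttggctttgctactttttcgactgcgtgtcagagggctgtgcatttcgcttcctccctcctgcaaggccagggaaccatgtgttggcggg
Nfkb2 a: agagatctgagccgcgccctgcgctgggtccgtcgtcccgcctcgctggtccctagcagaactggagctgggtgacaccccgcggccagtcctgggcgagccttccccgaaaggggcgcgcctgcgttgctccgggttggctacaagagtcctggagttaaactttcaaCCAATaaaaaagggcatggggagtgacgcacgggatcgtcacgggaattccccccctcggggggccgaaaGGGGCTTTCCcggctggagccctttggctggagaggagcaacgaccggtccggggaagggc
Nfkb2 b: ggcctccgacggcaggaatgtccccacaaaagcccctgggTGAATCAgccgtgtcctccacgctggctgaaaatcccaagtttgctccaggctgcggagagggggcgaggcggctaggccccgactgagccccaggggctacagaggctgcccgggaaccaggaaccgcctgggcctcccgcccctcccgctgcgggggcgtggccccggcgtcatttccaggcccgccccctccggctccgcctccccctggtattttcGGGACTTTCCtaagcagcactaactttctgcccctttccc
Fscn1 and Dusp1 each held a CRE, beside a TATA box in Fscn1 and an E-box in Dusp1. Rel and both Nfkb2 promoters each held a kappaB-type site. The Cytip promoter, with a GC content of 46.0%, held no match to these motifs. A match is a description of the letters and shows no binding.

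The wide regions also held microRNA genes, of which Mir142 and Mir142b, known from blood cells, share the region chr11:87755409-87757141. Mir5100 lay in chr11:60727126-60728750, and Mir5130 lay in chr14:102981600-102983383, the region of the Kctd12 start. The mature RNAs are printed from the RefSeq table with the seed, bases 2 to 8, in capitals.
miR-142a-5p: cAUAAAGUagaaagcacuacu
miR-142a-3p: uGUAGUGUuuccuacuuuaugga
miR-142b: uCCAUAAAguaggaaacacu
miR-5100: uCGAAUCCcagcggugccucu
miR-5130: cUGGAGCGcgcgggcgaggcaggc
None of the 5 seeds is the same as another. The mature miR-142a-3p on the plus strand (chr11:87756903-87756925) and miR-142b on the minus strand (chr11:87756906-87756925) cover the same bases. The RNA libraries were made from poly(A) RNA and give no level for the mature forms.

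The peak lists held 15597 to 19225 intervals per library, and the depth of the ATAC libraries is unknown from them. RNA libraries totalled 26010455 to 34208286 counts. All 10 genes fixed as defining dendritic cells, among them Itgax, Cd74, H2-Ab1 and Ccr7, were detected in all 6 RNA libraries. Their summed levels were 6580 to 9880 CPM (counts scaled to library size) in DMSO and 8040 to 9110 in AMLE. Cd74 alone gave 3177 to 4906 CPM of the sum in DMSO and 2972 to 3572 in AMLE. Of the 10 genes, 6 were higher and 1 was lower in AMLE in edgeR, so the sums do not show how single genes moved. Of the 13 macrophage markers tested (15 measured) 9 were lower and 1 was higher in AMLE in edgeR, where 25.6% of all genes tested were lower and 23% higher, with summed levels of 10900 to 13300 CPM in DMSO and 3060 to 7710 in AMLE and no marker at 0. Of the 14 neutrophil and precursor markers measured, 8 were lower and 1 was higher, with sums of 14600 to 23500 CPM in DMSO and 10900 to 14600 in AMLE and no marker at 0. Among mast cell and basophil markers 6 of 11 tested were higher and none lower (296 to 468 CPM in DMSO, 440 to 863 in AMLE), and among erythroid and megakaryocyte markers 4 of 7 were higher and none lower (87.2 to 136 and 159 to 240 CPM). Summed levels of stromal and endothelial markers were 32.8 to 41.8 CPM in DMSO and 44.7 to 98.9 in AMLE, those of lymphocyte markers 44.5 to 59.5 and 60.2 to 84.6, and those of plasmacytoid dendritic cell markers 172 to 184 and 194 to 210. Of the 5 stromal and endothelial markers tested 1 was higher and 2 were lower, although their sum was higher. Among lymphocyte markers 3 of 13 were higher and 1 lower, and among plasmacytoid dendritic cell markers 1 of 8 was higher and 1 lower. The haemoglobin genes Hba-a1, Hba-a2, Hbb-bs and Hbb-bt were at 0 in every library. The part that these shifts play in the RNA differences given further on was not tested.

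The wide regions had a median merged width of 1704 bp (quartiles 1584.5 and 1830) against 739 bp (590 and 913) in narrow regions. Only 36 of them reached 2000 bp, and the widest spanned 2967 bp. Within single libraries they were shorter, because the merged interval joins the reach of all 4. The bases covered by peaks of a library had a median of 1444 bp in DMSO replicate 1, 1427 bp in DMSO replicate 2, 1451 bp in AMLE replicate 1 and 1499 bp in AMLE replicate 2. The medians in narrow regions were 609, 603, 584.5 and 603 bp in the same order. A library alone reached 1500 bp in 124, 112, 127 and 145 of the 291 regions. In 53 regions all 4 libraries did so, and in 67 none did. The threshold falls on a slope without a break, as the histogram of merged widths shows, with 9 more regions of at least 1500 bp that lacked a peak in some library.

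**Figure D1:**
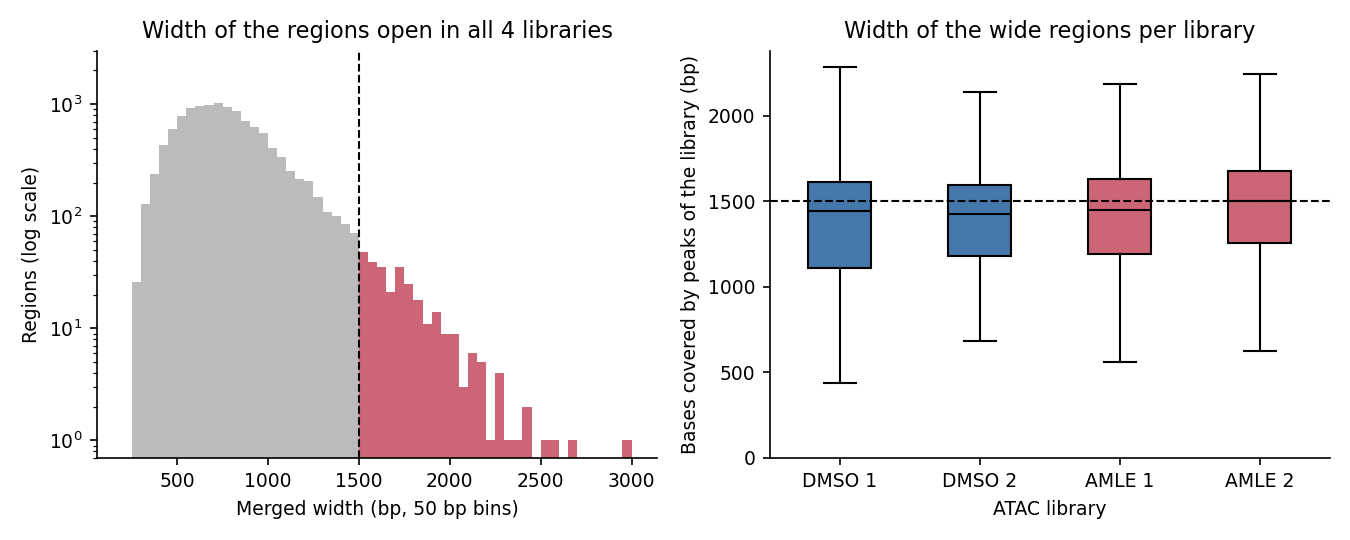
Left, number of regions open in all 4 libraries (log scale) by merged width in 50 bp bins, with wide regions in red and narrow ones in grey; the dashed line marks 1500 bp. Right, bases of the 291 wide regions covered by peaks of each library, with the median as a line, quartiles as the box and whiskers to the farthest value within 1.5 box lengths; the medians run from 1427 to 1499 bp.

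Regions beside the threshold differed widely in strength and evenness. Just inside it lay chr4:141558650-141560150 (1501 bp, between genes, covered over 1441 to 1491 bp in every library at folds of 9.89 to 12.9), chr11:116077013-116078512 (1500 bp, with an end of Unc13d inside) and chr6:99027341-99028840 (1500 bp, at a start of the transcription factor gene Foxp1). The Foxp1 region covered 1066 and 231 bp in the DMSO libraries and 344 and 1468 bp in the AMLE libraries, at folds of only 3.84 to 4.53, so its merged width came from different libraries. Just outside lay regions of 1499 bp at chr1:161250627-161252125 (with an end of Prdx6 inside), at the start of Ncoa7 (chr10:30802561-30804059; 741 bp in each DMSO library and 1451 and 1449 bp in the AMLE libraries) and at the start of the histone gene H4c11 (chr13:21734271-21735769).

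The widest region, chr11:69408650-69411616, lay within the span of Kdm6b, which encodes a demethylase of the repressive histone mark H3K27me3, and covered 1883 and 2573 bp in the DMSO libraries and 2186 and 2950 bp in the AMLE libraries. At the start of Fermt3 (chr19:7017737-7020402, 2666 bp), the gene of the integrin activator kindlin-3 of blood cells, the libraries covered 1763 and 2139 bp in DMSO and 2614 and 2481 bp in AMLE. Alyref2 (chr1:171501288-171503872, 2585 bp) covered 2287, 2385, 2368 and 2566 bp in the same order. The region of 4930526I15Rik (chr9:124422915-124425331, 2417 bp) filled 2391 to 2413 bp in each library, the smallest spread among the 10 widest.
At Cited2 (chr10:17722042-17724430, 2389 bp), whose product competes for the coactivators CBP and p300, the DMSO libraries covered 1536 and 1506 bp and the AMLE libraries 2380 and 2075 bp. Nek8 and Tlcd1 shared the region chr11:78176286-78178588 of 2303 bp. The noncoding gene Gm35413 lay at chr13:5802389-5804890 (2502 bp). The remaining 3 of the 10 widest lay between genes, 35533 bp from the nearest start (Tubd1; chr11:86580524-86582927), 7167 bp from Malat1 (chr19:5793243-5795505) and 11044 bp from Ccdc97 (chr7:25705730-25707991). The Malat1 start had a wide region of its own, chr19:5802118-5803850, so this abundant nuclear noncoding RNA was flanked by both.

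Wide regions held several summits, the points of highest signal that the peak caller gives within an interval. Per library they had on average 2.17 and 2.37 summits in the DMSO replicates and 2.35 and 2.20 in the AMLE replicates, against 1.12, 1.17, 1.14 and 1.13 in narrow regions. A width of 1500 bp leaves more room for summits, so the contrast is tied to the choice of regions. At least 2 summits were found in 82.1, 84.5, 81.4 and 76.3% of wide regions. Over all 4 libraries a wide region had a median of 9 summits (quartiles 7 and 11), and a narrow one had 4.

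Summits were then joined into positions when neighbours lay within 100 bp, and positions with a summit from every library were counted. Of the 291 regions 143 (49.1%) had 1 such shared position, 104 (35.7%) had 2, 6 (2.06%) had 3 and 38 (13.1%) had none. Among narrow regions 84.4% had 1 and 2.28% had 2 or more. A shared position was thus missing about as often in wide (13.1%) as in narrow regions (13.4%). The outermost summits of a wide region lay a median of 1113 bp apart, against 70 bp in narrow regions. The strongest summit fell within 100 bp in all 4 libraries in 139 wide regions (47.8%) and in 70.6% of narrow ones. Each library covered its region in a single interval in 167 wide regions (57.4%), and 124 were split into several intervals in some library.

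**Figure D2:**
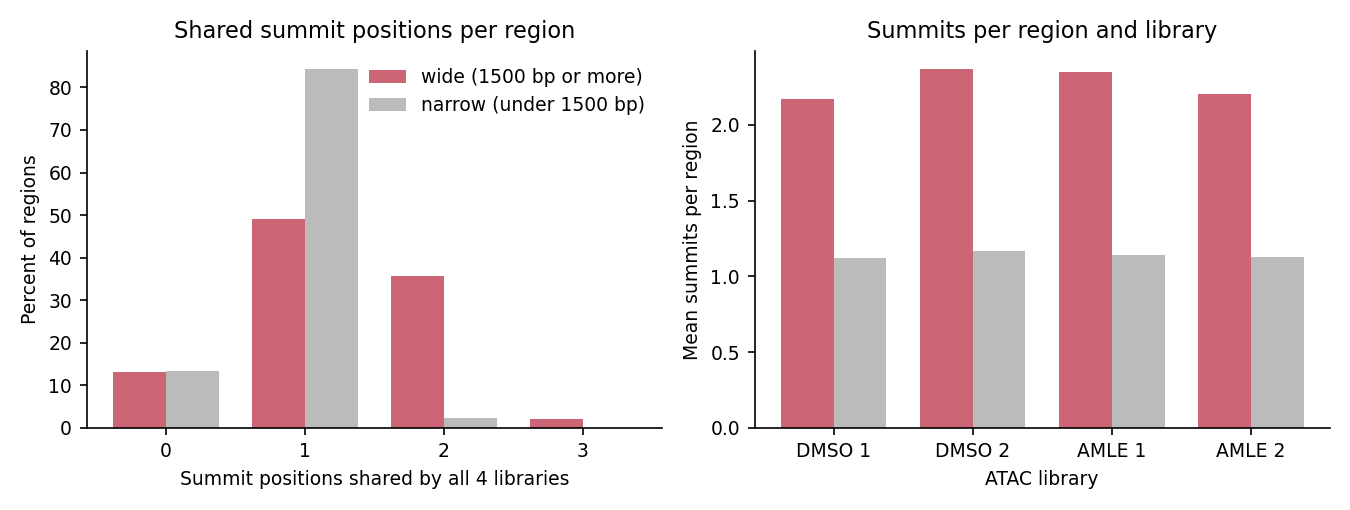
Left, percent of wide (red, 291) and narrow (grey, 11742) regions by the number of summit positions shared by all 4 libraries. Right, mean number of summits per region in each library; wide regions lie between 2.17 and 2.37 and narrow ones between 1.12 and 1.17.

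The most summits, 19 over the 4 libraries, were found at Gm35413, with 3, 5, 6 and 5 per library, but only 1 position was shared. At 4930526I15Rik 18 summits (5, 4, 5 and 4) gave 3 shared positions. A region of 2012 bp on an unplaced contig had 16 summits and 3 shared positions. These last 2 regions had −log10 q values of 103 to 167 and of 80 to 163 for the strongest summit, at folds of only 5.80 to 6.28 and 6.33 to 8.50. Pik3r5 (chr11:68430701-68432478, 1778 bp), which encodes a regulatory subunit of PI3-kinase gamma, also had 16 summits and 1 shared position. Ep300 (chr15:81584959-81586543, 1585 bp), the gene of the histone acetyltransferase p300, had 3 summits in every library and all 3 positions were shared.

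Wide regions were not the strongest ones. The fold enrichment over local background that the authors give for the highest summit had a median of 7.46, 8.42, 7.39 and 7.65 in the 2 DMSO and 2 AMLE libraries, below the 9.44, 10.9, 8.55 and 8.73 of narrow regions. Ranked among all 12033 regions within a library, the median wide region stood at the 31.2, 31.0, 38.8 and 39.9 percentile by fold. By −log10 q it stood at the 54.9, 57.8, 61.2 and 61.4 percentile, so the order differed between the measures. All 4 libraries gave the same picture.

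A gene start in the RefSeq promoter table lay inside 159 of the 291 wide regions (54.6%, exact 95% interval 48.7 to 60.5, counting error only), and 53.1% of narrow regions held one. Another 93 (32.0%) overlapped the span of a gene, 61 of them lying wholly within one, and 33 (11.3%) between genes, against 31.4% and 12.8% of narrow regions. Location by these classes was therefore close to that of narrow regions. Starts were not analysed for 6 regions, 4 of them on chromosome 18 and 2 on unplaced contigs. Where no start lay inside, the nearest was a median of 17449 bp away, with 24 of 126 regions within 5 kb and 57 beyond 20 kb. The table does not hold every gene, and in 62 regions a gene without an entry there had an end of its span inside, which may be its start.

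Chromosomes differed in how many of their open regions were wide. Chromosome 11 had 45 wide regions among 992 open in all 4 libraries (4.54%), chromosome 19 had 17 of 450 (3.78%) and chromosome 5 had 25 of 760 (3.29%). The lowest share was 0.969% on chromosome 14 (4 of 413). These shares are a description.

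Genes of small RNAs lay wholly inside 21 wide regions (7.22%) and 1.17% of narrow regions. Per length this was 64.9 genes per Mb of wide and 18.0 per Mb of narrow region. Of the 33 genes, 16 were tRNA genes in 7 regions and 12 were annotated as small nuclear RNA genes in 10 regions. A run of 4 tRNA genes (n-TLtaa4, n-TRtct1, n-TVtac1 and n-TVtac2) lay in chr19:12010473-12012508, which covered 1965 and 1680 bp in the DMSO libraries and 1366 and 1065 bp in the AMLE libraries. The spliceosomal RNA genes Rnu1a1 and Rnu2-10 lay in chr11:87422630-87424309 and chr11:101658003-101659879. The Mir142 region covered 1083 and 687 bp in the DMSO libraries and 1713 and 1350 bp in the AMLE libraries.

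Around a start, the median reach of wide regions exceeded that of narrow regions in each direction. In the 124 with starts on 1 strand only, a median of 755 bp lay upstream of the most upstream start and 981 bp downstream, and 70 of them (56.5%) reached farther downstream. Narrow regions reached 316 and 406 bp, and 61.8% reached farther downstream. The strongest summit lay at a median position of −46.75 bp, which is upstream, with quartiles of −241.75 and 118.25 bp. In narrow regions the median was −25.5 bp, with closer quartiles of −90.5 and 45.375 bp. The reach of wide regions had quartiles of 367.75 and 1197 bp upstream and of 506 and 1323.75 bp downstream. Many of these regions lay mostly on 1 side of the start. At Xbp1 the region began 7 bp before the start and ran 1517 bp into the gene, at Cdkn1a it had 172 bp upstream and 2062 bp downstream, and at Rbpj it had 1851 bp upstream and 336 bp downstream. Starts on both strands were found in 35 regions (22.0%), and in 18.2% of narrow regions.

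**Figure D3:**
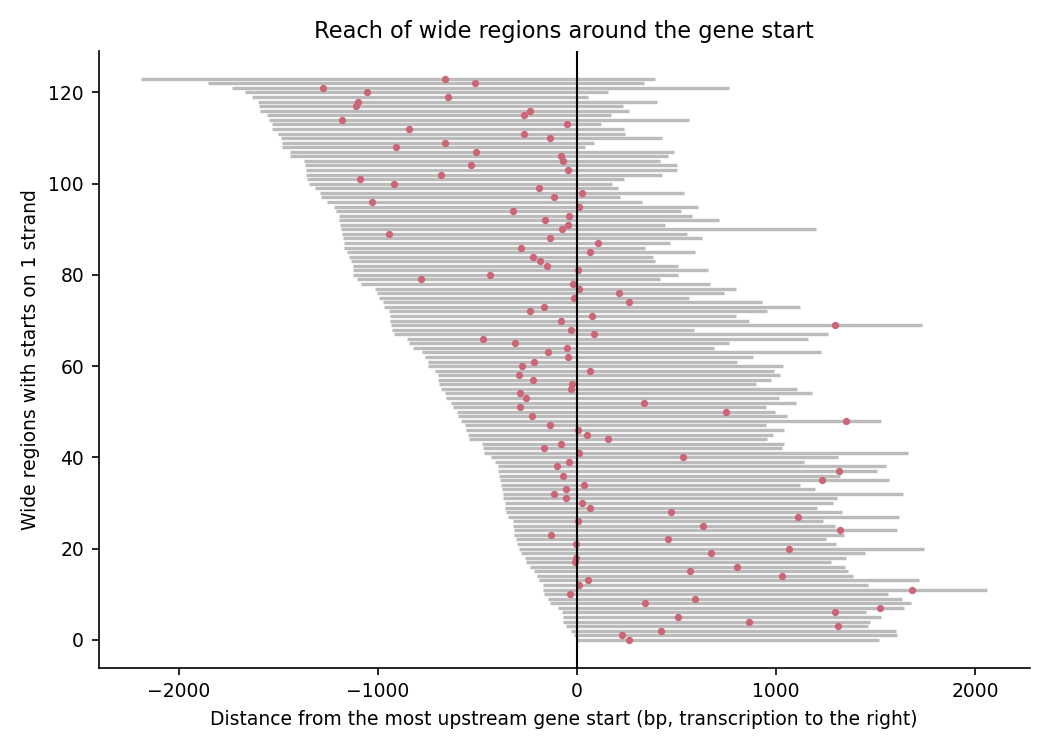
Reach of the 124 wide regions with starts on 1 strand, each a grey line, ordered by distance upstream; the x axis gives the distance in bp from the most upstream start with transcription to the right. Red points mark the median position of the strongest summit over the 4 libraries. Over the regions their median is −46.75 bp, with quartiles of −241.75 and 118.25 bp.

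The promoters at wide regions resembled those at narrow regions in base composition. A median GC content of 63.0% was found in the 233 promoter windows at wide regions, 62.7% in 8236 at narrow regions and 52.7% in all 32851 windows of the table, which include the others. The median number of CpG was 23, 24 and 7, and the ratio of observed to expected CpG was over 0.6 in 78.1, 84.9 and 35.8%. The GC box (GGGCGG) was found in 68.7% of windows at wide, 71.4% at narrow regions and 35.7% of all. Searched on both strands, the ETS core CCGGAAGT was present in 3.86% of the windows at wide regions (9), in 10.7% at narrow regions and in 3.89% of all. The kappaB-type site shown above was present in 3.43% (8 windows), 1.54% and 1.63%, the E-box in 15.0, 11.4 and 7.15%, and the CRE in 3.0, 4.01 and 1.79%. A CCAAT box was present in 32.2, 40.1 and 37.4%, the AP-1-type site in 6.44, 3.91 and 7.81%, and a TATA box in 4.72, 5.34 and 13.6%. A gene can have several windows, windows can overlap, and no test was made.

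RNA was measured for 180 of the 195 genes with a start in a wide region, and 177 passed the filter on low counts. The median level over these 180 genes was 93.0, 92.5 and 87.8 CPM in the DMSO libraries and 100, 97.5 and 99.8 CPM in the AMLE libraries. These levels are not corrected for transcript length, so no order between genes is drawn from them. Amd1, H2bc9 and H4c1 did not pass the filter. Amd1 had 0 counts in every library, which allows up to 0.0877 to 0.115 CPM by counting error, and it has near-identical copies that could hold its reads.

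Of the 177 genes tested, 54 (30.5%) were higher in AMLE and 32 (18.1%) were lower at a Benjamini-Hochberg adjusted p below 0.05 in edgeR, with a median log2 fold change of 0.087. Over all 13075 genes tested 48.6% changed, 23% higher and 25.6% lower, with a median of −0.005. Among 6535 genes at narrow regions 20.0% were higher and 30.2% lower (median −0.049). The split in wide regions was thus towards higher and that in narrow regions towards lower, but the difference between the classes was not tested. The 2684 genes tested whose start lay in no peak had 28.8% higher and 15.9% lower. Changes of at least 2-fold were few, with 4 of the 177 genes higher and 4 lower, against 5.52% and 4.4% of all genes. The groups did not overlap in 114 genes (64.4%), and 59.7% of all genes did not overlap either, so this count is near the background.

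**Figure D4:**
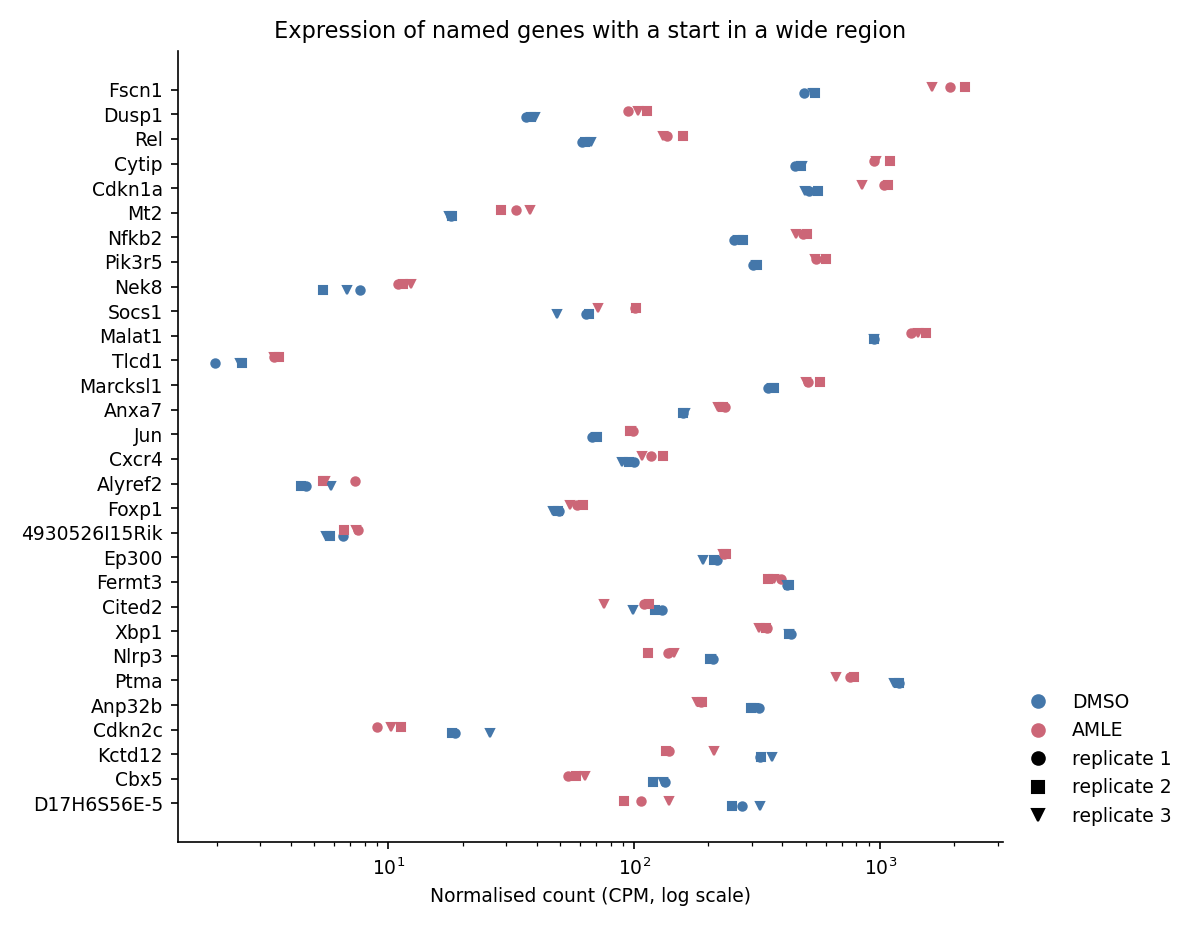
RNA level in CPM (log scale) of 30 named genes with a start in a wide region in each of the 3 DMSO (blue) and 3 AMLE (red) libraries, marker shapes giving the replicate, ordered by log2 fold change. Fscn1 at the top lies at 490.6 to 544.6 CPM in DMSO and 1616 to 2211 in AMLE, and D17H6S56E-5 at the bottom at 250 to 324.2 and 90.76 to 138.3.

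Fscn1, the gene of the actin-bundling protein fascin of mature dendritic cells, had the largest rise. Its level was 490.6, 544.6 and 533.2 CPM in the DMSO libraries and 1921, 2211 and 1616 CPM in the AMLE libraries. The groups did not overlap, and the gene rose 3.66-fold (log2 1.87, standard error (SE) 0.12, adjusted p = 6.8e-05). In its region the peaks covered 815 and 1515 bp in DMSO and 1383 and 1774 bp in AMLE, which overlapped.
Other co-stimulation and maturation genes at wide regions were Icam1, the adhesion partner of T-cell integrins, Marcksl1, an actin-binding membrane protein gene, and Socs1, an inhibitor of cytokine signalling. These were 4 of the 22 members of that list with a start in the table (18.2%), where 1.7% of all genes tested that have such a start lay at a wide region. All 4 rose, and so did 28 of the 33 tested, so the direction was that of the list. Icam1 stood at 288.1, 325.9 and 312.6 CPM in DMSO and at 435.3, 428.4 and 451.1 CPM in AMLE, a 1.42-fold rise with no overlap (adjusted p = 0.0006).
Marcksl1 rose 1.46-fold, from 348.1, 370.5 and 361.1 CPM to 508.8, 567.5 and 499.8 CPM (adjusted p = 0.00057). Socs1 rose 1.53-fold from 59.3 ± 9.41 to 90.9 ± 17.1 CPM (SD, n = 3 and 3, edgeR adjusted p = 0.021). The Socs1 call was lost without DMSO replicate 3 (adjusted p = 0.054), without AMLE replicate 1 or 2 (0.069 each) and with no low-count filter (0.05), with a range of 2.5e-05 to 0.069 over its 10 alternatives.

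NF-kB is a family of dimeric transcription factors held in the cytoplasm until an inhibitor is degraded, and 2 of the 22 members of its list with a start in the table, Rel and Nfkb2, started in wide regions. Rel encodes the subunit c-Rel. It stood at 61.50, 62.96 and 66.66 CPM in DMSO and at 136.3, 157.4 and 131.2 CPM in AMLE, with no overlap, and rose 2.22-fold (log2 1.15, SE 0.08, adjusted p = 7.8e-05).
Nfkb2, the precursor of the p52 subunit, stood at 254.1, 276.4 and 262.7 CPM in DMSO and at 483.4, 504.8 and 454.2 CPM in AMLE. It rose 1.82-fold with no overlap (log2 0.86, SE 0.06, adjusted p = 8.9e-05). Its region was one of the most even, with 1505 and 1508 bp in DMSO and 1528 and 1511 bp in AMLE and with 2 summits in every library, both shared. Of all 27 list members 21 rose, and 17 members started in narrow regions, among them Nfkbia, the gene of the inhibitor IkB-alpha, which rose 1.66-fold from a region of 1246 bp.

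The list of mRNA decay regulators and immediate early genes, the latter answering a signal without new protein, had the most members at wide regions. These were 5 of the 29 with a start in the table (17.2%). Of these Dusp1, Ier5, Jun and Egr2 rose and Cited2 did not pass the test. Of the 35 list members tested 19 were higher and 2 lower, so the direction was that of the list. Dusp1, a phosphatase of MAP kinases, stood at 36.36, 37.96 and 39.34 CPM in DMSO and at 94.33, 113.0 and 103.4 CPM in AMLE. With no overlap it rose 2.73-fold (log2 1.45, SE 0.08, adjusted p = 3.3e-05). Its region covered 1136 and 1568 bp in DMSO and 1401 and 1650 bp in AMLE.
Jun, a subunit of AP-1 (chr4:95051554-95053549, 1996 bp), rose 1.40-fold, from 67.32, 70.50 and 69.76 CPM to 99.11, 95.78 and 96.48 CPM (adjusted p = 0.00019). Ier5 rose 1.38-fold, from 129 ± 8.26 to 178 ± 6.74 CPM (SD, n = 3 and 3, edgeR adjusted p = 0.00092). Egr2, a zinc finger transcription factor gene (chr10:67536062-67538198, 2137 bp), rose 1.27-fold, from 128 ± 5.27 to 162 ± 6.60 CPM (SD, n = 3 and 3, edgeR adjusted p = 0.0017). None of these 3 overlapped between groups.
Cited2 stood at 129.2, 121.2 and 98.36 CPM in DMSO and at 109.0, 114.6 and 75.16 CPM in AMLE, which overlapped (log2 −0.22, adjusted p = 0.32). With the replicate number as a block it was called lower (adjusted p = 0.014), and its 10 alternatives ranged from 0.014 to 0.76. Listed genes without a start entry but with an end of their span in a wide region were Egr1, Ier2 and Zfp36l2. Egr1 rose 2.18-fold from 39.1 ± 13.7 to 85.4 ± 8.90 CPM, and Zfp36l2, which encodes an mRNA decay protein, fell by 0.85 on the log2 scale, from 230 ± 25.2 to 127.5 ± 35.4 CPM (SD, n = 3 and 3, edgeR adjusted p = 0.0079 and 0.0097). Ier2 stood at 81.1 ± 8.64 and 82.2 ± 6.62 CPM (edgeR adjusted p = 0.88, n = 3 and 3).

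Cytip and Cdkn1a complete the largest rises among called genes, with Mt2. Cytip, which encodes a cytohesin-binding regulator of adhesion in leukocytes (chr2:58159680-58161312, 1633 bp), stood at 448.5, 478.0 and 481.5 CPM in DMSO and at 946.6, 1100 and 957.4 CPM in AMLE. It rose 2.13-fold with no overlap (adjusted p = 8.3e-05). Cdkn1a, the gene of the cell cycle inhibitor p21 (chr17:29093597-29095831, 2235 bp), stood at 515.2, 560.5 and 491.8 CPM in DMSO and at 1039, 1075 and 843.8 CPM in AMLE.
Cdkn1a rose 1.89-fold with no overlap (log2 0.92, SE 0.10, adjusted p = 0.00046). Its region covered 1376 and 1316 bp in the DMSO libraries and 2151 and 2062 bp in the AMLE libraries, but the width test, given below, called no region. Mt2, a metallothionein gene that binds zinc and copper (chr8:94171679-94173417), rose 1.84-fold, from 17.99, 18.19 and 17.60 CPM to 32.89, 28.65 and 37.71 CPM (adjusted p = 0.00052). Pik3r5 rose 1.82-fold, from 310 ± 5.07 to 563 ± 31.1 CPM (SD, n = 3 and 3, edgeR adjusted p = 7.3e-05).

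The 4 falls of more than 2-fold were those of D17H6S56E-5, Cbx5, Kctd12 and Cdkn2c. D17H6S56E-5 (chr17:34999880-35001683), stood at 274.9, 250 and 324.2 CPM in DMSO and at 105.9, 90.76 and 138.3 CPM in AMLE. It fell by 1.34 on the log2 scale (SE 0.17, adjusted p = 0.00088) with no overlap. Cbx5, which encodes the heterochromatin protein HP1-alpha, shared its region (chr15:103239350-103240909, 1560 bp) with Hnrnpa1.
Cbx5 stood at 132.9, 119.5 and 131.0 CPM in DMSO and at 53.63, 57.85 and 63.12 CPM in AMLE, and fell by 1.13 on the log2 scale (SE 0.07, adjusted p = 7.2e-05). Hnrnpa1, a splicing factor gene with many pseudogene copies, stood at 8.18 ± 0.429 and 6.94 ± 0.962 CPM (SD, n = 3 and 3, edgeR adjusted p = 0.15). Kctd12, which encodes an auxiliary subunit of GABA-B receptors (chr14:102981600-102983383), fell by 1.06 on the log2 scale, from 324.7, 325.8 and 363.1 CPM to 138.6, 134.6 and 211.4 CPM (adjusted p = 0.0027). The group values of Cbx5 and Kctd12 did not overlap.
Cdkn2c, the gene of the cyclin-dependent kinase inhibitor p18 (chr4:109665726-109667229, 1504 bp), stood at 18.66, 18.12 and 25.94 CPM in DMSO and at 9.01, 11.20 and 10.20 CPM in AMLE. It fell by 1.04 on the log2 scale (SE 0.16, adjusted p = 0.002) with no overlap. The cell cycle list had 31 of its 36 members lower, so both inhibitors at wide regions moved apart from each other, Cdkn1a up and Cdkn2c down with the list. Anp32b, a histone chaperone gene (−0.74), and Ptma, which encodes prothymosin alpha and has many processed copies (−0.68), fell as well, from 309 ± 10.6 to 185 ± 4.30 CPM and from 1171 ± 29.9 to 731 ± 65.2 CPM (SD, n = 3 and 3, edgeR adjusted p = 7.3e-05 and 0.00045).

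Other lists had 1 or 2 members at wide regions. Nlrp3, the sensor of the inflammasome (chr11:59541279-59543312, 2034 bp), was 1 of 28 pattern recognition genes with a start in the table. It stood at 208.0, 203.5 and 204.9 CPM in DMSO and at 136.9, 113.7 and 144.9 CPM in AMLE, and fell by 0.64 on the log2 scale with no overlap (SE 0.09, adjusted p = 0.0011). The cytokine gene Tnf (chr17:35200401-35202324, 1924 bp) stood at 82.99, 91.29 and 72.52 CPM in DMSO and at 63.30, 50.04 and 74.47 CPM in AMLE.
These overlapped, and Tnf was not called (log2 −0.40, adjusted p = 0.066), though it was called lower without AMLE replicate 3 (adjusted p = 0.012) and by DESeq2 (adjusted p = 0.03), in a range of 0.012 to 0.18 over its alternatives. Cxcr4, the receptor of the chemokine CXCL12 (chr1:128590790-128592695, 1906 bp), rose 1.25-fold from 94.6 ± 5.41 to 118 ± 11.5 CPM (SD, n = 3 and 3, edgeR adjusted p = 0.014). Xbp1, a transcription factor of the unfolded protein response, fell by 0.35 on the log2 scale, from 428.5 ± 4.68 to 337 ± 12.3 CPM (SD, n = 3 and 3, edgeR adjusted p = 0.0012).
Malat1 rose 1.52-fold, from 940.4, 943.4 and 940.8 CPM to 1329, 1530 and 1429 CPM (adjusted p = 0.00042). Ep300 stood at 206 ± 14.1 and 232 ± 4.03 CPM (SD, n = 3 and 3) and was called higher (log2 0.17, edgeR adjusted p = 0.048), a call lost in 6 alternatives (edgeR adjusted p of 0.053 to 0.12, and 0.023 to 0.12 over all alternatives), namely without any 1 library other than AMLE replicate 3 and with no low-count filter. The adhesion and cytoskeleton genes Itgam and Vim and the noncoding Mir22hg did not pass the test (adjusted p = 0.45, 0.13 and 0.14), nor did the repressor gene Irf2 (0.53). Among members with a start in the table, none of the 17 for MHC class I, 9 for MHC class II, 27 for interferon response or 48 for ribosomal proteins started in a wide region, nor did any in the 7 marker lists of other cells. At 1.7%, the share of all tested genes with such a start, lists of this size would hold few or none. Another 2, 3, 8 and 18 measured members of the first 4 lists had no start entry and could not be placed. Of these the ribosomal gene Rpl7 had an end of its span in the wide region chr1:16104277-16106057 and was not called in edgeR.

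Among the genes at the widest regions, Nek8, a kinase gene, rose 1.74-fold from 6.62 ± 1.11 to 11.6 ± 0.746 CPM (SD, n = 3 and 3, edgeR adjusted p = 0.0025). Tlcd1 rose 1.5-fold, from 2.33 ± 0.309 to 3.48 ± 0.0932 CPM (SD, n = 3 and 3, edgeR adjusted p = 0.016), a call lost without DMSO replicate 1 (0.055, in a range of 0.01 to 0.055). Fermt3 was called lower (log2 −0.18, edgeR adjusted p = 0.036), a call lost without any 1 library other than AMLE replicate 1 (0.061 to 0.11, in a range of 0.027 to 0.11). Alyref2 and 4930526I15Rik did not pass the test (adjusted p = 0.19 and 0.087). The 2 genes next to the threshold, Foxp1 inside and Ncoa7 outside, both rose, by 0.27 and 1.02 on the log2 scale (adjusted p = 0.0074 and 0.0003).

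Several known dendritic cell genes did not start in a wide region. Irf8, a transcription factor of dendritic cell development (954 bp), Junb (1239 bp), Zfp36 (715 bp) and Cebpb (1199 bp) had narrow regions at their starts. A wide region between genes, chr7:28381544-28383405 (1862 bp), lay 2316 bp from the Zfp36 start. Irf8 rose 3.69-fold, Junb 1.83-fold and Zfp36 1.49-fold (adjusted p = 4.6e-05, 6.8e-05 and 0.0026), so a large rise also occurred at a narrow region. Cebpb was not called (0.18), although it was without AMLE replicate 2 (0.0059, in a range of 0.0059 to 0.39). Zbtb46 had no peak at its start and rose 1.84-fold (adjusted p = 0.0004).
Spi1, Cd83, Ccr7, Cd40, Actb and Cd74 had no start entry in the table, so their starts could not be placed. The span of Actb held the whole wide region chr5:142905420-142907025 (1606 bp). Its libraries covered 1468 and 1572 bp in DMSO and 1513 and 1581 bp in AMLE. Ccr7, Cd40 and Cd83 rose (log2 1.46, 2.45 and 1.06, adjusted p = 8.4e-05, 8.9e-05 and 0.00027). Spi1 was called lower (−0.20, adjusted p = 0.023; 0.052 to 0.082 without DMSO replicate 1 or 2 or AMLE replicate 1 or 2, in a range from 0.0093) and Actb higher (0.25, adjusted p = 0.036; 0.08 to 0.11 without any 1 library other than AMLE replicate 3, in a range from 0.0042). Cd74 was not called (0.18) and was called lower with the replicate block (0.025, in a range of 0.025 to 0.49).

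Genes whose span held a whole wide region, with no start from the table in it, moved in both directions. Of 48 such genes measured, 46 were tested, with 18 higher and 6 lower, where 23% of all genes were higher and 25.6% lower, and with a median log2 fold change of 0.148. Adora2a, an adenosine receptor gene, stood at 30.80, 34.80 and 29.59 CPM in DMSO and at 86.21, 97.12 and 73.55 CPM in AMLE and rose 2.7-fold with no overlap (adjusted p = 0.00014). Glipr2 rose 1.85-fold, from 394 ± 31.4 to 731 ± 98.3 CPM (SD, n = 3 and 3, edgeR adjusted p = 0.00071).
Kdm6b, with the widest region, rose 1.27-fold from 62.0 ± 6.98 to 78.8 ± 7.24 CPM (SD, n = 3 and 3, edgeR adjusted p = 0.025), and the call was lost when AMLE replicate 1 or 2 or DMSO replicate 3 was left out (0.051 to 0.080, in a range from 0.00042). Genes without a start entry and with an end of their span in a wide region numbered 81, of which 38 were tested, 8 were higher and 10 were lower, near the shares over all genes. Smc4, a condensin subunit gene of dividing cells, fell by 1.21 on the log2 scale, from 167 ± 8.82 to 72.2 ± 6.53 CPM (SD, n = 3 and 3, edgeR adjusted p = 6.7e-05). Bhlhe40, a repressor of the clock family, rose 1.91-fold from 429 ± 22.1 to 818 ± 36.5 CPM and Kmt2e rose by 0.30 on the log2 scale (SD, n = 3 and 3, edgeR adjusted p = 7.8e-05 and 0.0026). Itgb2 and Rac2, an integrin subunit and a GTPase gene of leukocytes, were not called (adjusted p = 0.27 and 0.17), though Rac2 was called lower with the replicate block (0.0048) and without DMSO replicate 3 (0.048), in a range of 0.0048 to 0.37. Itgb2 was called higher without AMLE replicate 2 (0.019, in a range of 0.019 to 0.47).

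The widths of single regions were compared between AMLE and DMSO with limma over all 12033 regions, after each library was centred on its median log2 width. No region was called, wide or narrow (0% of 12033), and the lowest adjusted p was 0.583. At an unadjusted p below 0.05 there were 48 wide regions, 34 wider and 14 narrower in AMLE, and 839 regions in all. With 2 libraries against 2 an exact two-sided permutation test cannot reach 0.05, so single regions are description. The median centred difference was 0.078 on the log2 scale in wide regions and 0.002 in narrow ones. In wide regions it was 0.048 without centring and 0.038 with only summits of −log10 q of 5 or more. Both AMLE libraries exceeded both DMSO libraries in 86 wide regions (29.6%, against 18.4% of all regions), and both lay below in 41 (14.1%, against 18.6%). Without centring the counts were 67 (23%, against 14.2% of all regions) and 53 (18.2%, against 22.8%). The depth of the libraries is unknown and moves widths, and its part in this difference was not tested. The regions were chosen by the merged reach of these intervals, so a region can be in the set because some libraries reach farther. The shares and the median difference in wide regions are therefore description.

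Sites of weak signal and strong promoters were both among the wide regions with the largest differences in width. The largest gain with no overlap lay at chr2:58126942-58128547, 31575 bp from the Cytip start, where the DMSO libraries covered 655 and 309 bp and the AMLE libraries 820 and 1436 bp. Its highest folds were 2.99, 2.66, 4.06 and 3.48, among the weakest. Another gain, at chr12:32766629-32768647 within the span of Gm40376, went from 546 and 337 bp to 978 and 985 bp.
At Marcksl1 (chr4:129513280-129514881) the cover went from 543 and 754 bp to 1052 and 1538 bp, and the number of summits from 1 and 1 to 3 and 4, while the highest fold was 8.34 and 8.32 in DMSO and 5.38 and 6.11 in AMLE. At Amd1 (chr10:40300866-40302582), which encodes S-adenosylmethionine decarboxylase, the cover went from 833 and 908 bp to 1641 and 1717 bp at folds of 13.2 to 14.0. The Gapdh region (chr6:125164514-125166692, 2179 bp) covered 1199 and 1316 bp in DMSO and 1941 and 1913 bp in AMLE.
The largest loss lay at Anxa7, an annexin gene (chr14:20478524-20480149), from 1322 and 1058 bp to 358 and 289 bp (log2 −1.85, SE 0.20, adjusted p = 0.583). Losses within the spans of Plekha2 (chr8:25101576-25103212), Baz1a (chr12:54984829-54986485) and Abi3 (chr11:95834109-95835629) followed. In these 3 the DMSO libraries covered 783 to 1657 bp and the AMLE libraries 282 to 674 bp.

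Width and RNA differed in direction at some genes and not at others. Anxa7 RNA rose 1.44-fold, from 158 ± 1.73 to 227 ± 7.91 CPM (SD, n = 3 and 3, edgeR adjusted p = 0.00018), while its region was narrower in both AMLE libraries. Plekha2 rose by 0.44 and Baz1a fell by 0.44 on the log2 scale (adjusted p = 0.00051 and 0.00047). Rbpj, the nuclear effector of Notch signalling, whose region was wider in both AMLE libraries, rose 1.25-fold (adjusted p = 0.0025), and Gapdh, which has many processed copies, was not called (0.14).
Of 59 tested genes at the 86 wider regions 19 were higher and 10 lower. Of 21 at the 41 narrower regions 5 were higher and 6 lower, and of 97 at the overlapping ones 30 were higher and 16 lower. Over all genes tested at wide regions 30.5% were higher and 18.1% lower, and over all genes 23% and 25.6%. The differences between these 3 groups were not tested.

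**Figure D5:**
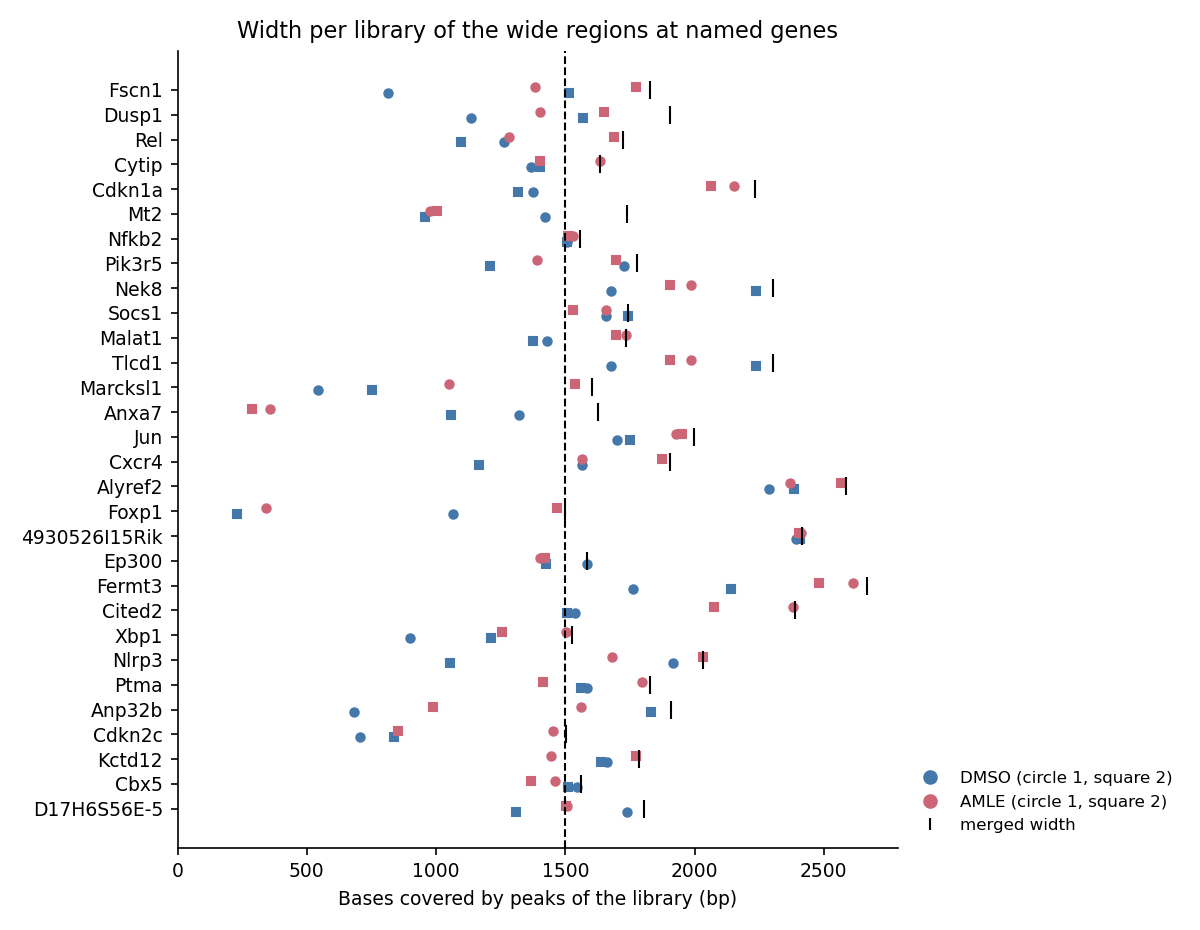
Bases covered by peaks of each library (bp) in the wide regions of 30 named genes, with DMSO in blue and AMLE in red, circles for replicate 1 and squares for replicate 2; a black tick gives the merged width and the dashed line marks 1500 bp. Marcksl1, Cdkn1a and Cited2 lie farther right in both AMLE libraries and Anxa7 farther left, while Nfkb2 and 4930526I15Rik hardly differ between libraries.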

How the data were processed

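RNA libraries were made with a stranded poly(A) kit and ATAC libraries with the Omni-ATAC method, per the labels' protocols. The authors deposited raw read counts per gene symbol. For each ATAC library they deposited a peak list with a score, a −log10 p, a −log10 q-value and the ratio of signal to local background (the fold) for each summit, per the file columns, with the smallest −log10 q at 1.30 to 1.31. The submitters' processing notes list, with no role for any, the build mm10 and the tools MACS3 3.0.0a7, Bowtie2 2.4.4, STAR 2.7.11b, HOMER, ChIPseeker 1.30.0, deepTools 3.5.1, Trim Galore 0.6.7, Picard, FastQC and SAMtools 1.7. How reads were counted and by which strand setting and annotation, and the peak settings, is not given in the sources used here. Genes that overlap, lie antisense or have near-identical copies may therefore share reads.

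Peak rows sharing an interval were read as summits of it, and intervals were merged at an overlap of at least 1 bp. Each summit's fold and −log10 q, which the authors computed, served only to describe and rank within a list; the score was not needed. Width per library is the number of bases covered by that library's intervals. Gene starts, promoters and microRNAs came from RefSeq on GRCm38.p6, the same build as mm10, with starts of 27025 genes and none on chromosome 18. A gene was at a region where its start lay inside.

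Counts were tested with edgeR 4.0.16 in R 4.3.3 (TMM, default filter with a minimum count of 10, robust quasi-likelihood F test, two-sided), adjusted over 13075 genes. CPM are scaled to effective library totals, and the SE is the fitted log2 change divided by √F. Widths were tested with limma 3.58.1 on centred log2 widths. Both tests were checked on simulated data. DESeq2 1.42.0 and limma-voom were alternatives, beside other filters, thresholds and left-out libraries. Groups came from the sample titles, and 0 per-sample columns were left unused. All calls come from fits without a replicate block; the block was an alternative. The labels do not say what a replicate number marks. Deviations of the RNA libraries from their group means correlated at 0.292, 0.28 and 0.431 for the same number. For other pairs the correlations were −0.31 to 0.11. RNA libraries of the same number were thus more alike in this sense, which the calls do not use. In ATAC widths the correlation for the same number was −0.0267.

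The regions and the 24 gene lists (645 entries, 642 of them in the count table) were chosen with earlier results of these data known. Named genes were 12 fixed ones, those at the 10 widest regions and at the 5 with the most summits, the 6 largest rises and 6 largest falls among called genes whose groups did not overlap and whose CPM averaged 10 or more, up to 2 called members per list, and those at the threshold or with the 4 largest width gains or losses. The other genes named were chosen after their values were seen: the remaining list members, and genes of spans or regions described.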

Additional observations from a re-analysis of the deposited data

How the results depend on the processing

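No test call for widths arose in any alternative (0 of 291 wide regions). A width threshold of 1000 bp gave 2229 regions, 1.57 summits per library, and 377 genes higher and 370 lower of 1418 tested. One of 2000 bp gave 36 regions, 2.78 summits, a gene start in 66.7%, 7 genes higher and 5 lower of 28, and a median of 110 CPM against 95.2. The mean of 2.27 summits became 2.00 with −log10 q of 5 or more and 2.4 where each library covered 50% of the region. The median width difference of 0.078 was 0.048 without centring, 0.038 with −log10 q of 5 or more, and 0.059 to 0.079 leaving out 1 library at a time. Leaving out 1 RNA library, 39 to 55 genes were higher and 26 to 36 lower; leaving out 1 ATAC library, 232 to 259 regions were found, 52.9 to 57.2% of them with a gene start and 2.28 to 2.37 summits. With the replicate block 62 genes were higher and 41 lower, no width call was made, and of the named genes only Cd74, Cited2 and Rac2 changed their call. With genes that have an end but no start entry inside, an alternative chosen after seeing the data, 62 were higher and 42 lower of 215. Among 43 genes tested under the rule, 38 were called, 32 of these in every alternative, and 0 of the alternative values changed sign. Among 26 further genes 14 were called and 13 of these in every alternative. Leaving out 1 RNA library at a time, Ier2 ranged from −0.071 to 0.084, changing sign without DMSO replicate 3 or AMLE replicate 1 (−0.026), and Rpl7, which was not called, ranged from −0.076 to 0.033, changing sign without AMLE replicate 3, and Hsp90ab1 was called lower only without AMLE replicate 2 (−0.211). The unknown ATAC depth and 2 libraries per group limit every statement on width, and the causes of these shifts were not tested.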
